A study of Homo sapiens with 8 samples.

Results

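The aminoacyl-tRNA synthetase genes were followed in the established cell line G401, derived from a kidney rhabdoid tumor. They were taken by symbol from the GENCODE annotation: every protein-coding gene named with 1 amino acid letter followed by ARS1 or ARS2, together with EPRS1, FARSA and FARSB. This gave 37 genes of the 69215 listed in each library. Of these, 20 encode cytosolic enzymes and 17, those with the suffix 2, encode mitochondrial enzymes. By the usual naming KARS1 and GARS1 supply both compartments, and they were kept with the cytosolic genes.

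All cells were G401, a line without SMARCB1. SMARCB1 is part of the core of SWI/SNF, the complexes that move nucleosomes. They carried a Tet-On construct, in which doxycycline (Dox) turns on SMARCB1 in one engineered line and GFP in the other. Each line was given 0.1 µg/ml Dox or an equivalent amount of dimethylsulfoxide (DMSO) for 12 h, and RNA was sequenced. The 4 groups, SMARCB1 DMSO, SMARCB1 Dox, GFP DMSO and GFP Dox, held 2 libraries each. Each library came from 6 plates pooled at harvest per the study's methods, and both engineered lines came from another laboratory. Nothing in the sources used here states that the 2 libraries of a group were separate passages, so that p-values measure only the spread between these libraries. The GFP and SMARCB1 lines are separate derivatives, so that the transgene and any other difference between the derivatives cannot be told apart.

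Aminoacyl-tRNA synthetases join each amino acid to its tRNA and so set the supply of charged tRNA for the ribosome. The nucleus encodes a set for the cytosol and a largely separate set for the mitochondrion, where the enzymes serve the few proteins translated from mitochondrial DNA. They fall into 2 structural classes that differ in the fold of the catalytic domain. In the cytosol several of them sit in the multi-synthetase complex with the scaffold proteins AIMP1, AIMP2 and EEF1E1. Many cytosolic synthetase genes are known targets of ATF4, the transcription factor that accumulates when amino acids are short or the endoplasmic reticulum is stressed, and WARS1 is in addition a known interferon-induced gene.

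The libraries held between 29632090 and 37597477 counts assigned to genes, and a count of 3 corresponded to 0.0798 to 0.101 CPM (counts scaled to a common library total) per library. The share of counts from genes of the mitochondrial chromosome ran from 18.9% to 27.9% and was highest in SMARCB1 DMSO replicate 1, which stood apart from the others in this respect. SMARCB1 itself had 10 and 21 counts under DMSO and 30474 and 29383 counts under Dox in the SMARCB1 line, and 0 counts in all 4 GFP libraries. The line markers VIM, KRT8 and KRT18 were abundant together, at 1603 to 1923 CPM of all assigned counts. The summed levels of 5 leukocyte, 3 endothelial, 5 kidney tubule and 2 red cell markers did not exceed 3.42 CPM in any library. The leukocyte sum was 1.21 and 1.75 CPM in the SMARCB1 Dox libraries and 2.43 to 3.15 CPM in the other libraries, most of it from CD68, which was called lower with Dox in the SMARCB1 line at a log2 fold change of -0.90. The synthetase genes together took 0.278% to 0.340% of the assigned counts, with the lowest share in SMARCB1 DMSO replicate 1.

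Promoter windows from RefSeq (GRCh38.p14), running from 250 bases before to 50 bases after each annotated start, were at hand for 30 of the 37 genes. The windows of the other genes, VARS1, VARS2 and YARS1 among them, were not analysed here. The C/EBP-ATF composite sequence that ATF4 is known to bind, TGATGNAA read on both strands, occurred in 7 of 16 cytosolic and 1 of 14 mitochondrial genes with a window. Of all 35116 windows, 3.62% held it. A gene can have more than 1 window, and a match is a description of letters only. Of the cytosolic genes with a match, AARS1, IARS1, NARS1 and MARS1 were not called between the lines under DMSO. Their log2 ratios, SMARCB1 line over GFP line, were -0.09, -0.11, -0.12 and 0.27. SARS1, QARS1 and YARS1, which were called higher in the SMARCB1 line under DMSO, are not among the genes with a match. Whether a match went with a difference between the lines was not tested. The 30 bases around each match are shown because CARS1, GARS1 and TARS1, described further on, are among the genes with a match. They are written 5′ to 3′ on the strand of the gene, with the match in capitals and with the position of its first base relative to the start. In 6 of the 8 genes the match lay on the opposite strand, so that it reads as its reverse complement.
TARS1 (chr5:33440956-33440985, plus strand, match at position 3): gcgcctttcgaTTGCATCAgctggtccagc
GARS1 (chr7:30594834-30594863, plus strand, match at position -33): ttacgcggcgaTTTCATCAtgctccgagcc
IARS1 (chr9:92293692-92293721, minus strand, match at position -13): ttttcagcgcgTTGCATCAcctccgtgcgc
CARS1 (chr11:3057407-3057436, minus strand, match at position -2): cggggcggcggTTGCATCAgattctaggaa
MARS1 (chr12:57488053-57488082, plus strand, match at position -4): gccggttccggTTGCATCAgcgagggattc
AARS1 (chr16:70289675-70289704, minus strand, match at position -187): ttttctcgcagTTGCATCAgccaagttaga
NARS1 (chr18:57621804-57621833, minus strand, match at position 15): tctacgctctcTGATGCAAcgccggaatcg
YARS2 (chr12:32756076-32756105, minus strand, match at position -197): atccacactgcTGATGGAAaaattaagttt

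The stricter form TGATGCAA was present in 6 cytosolic genes, which are those shown other than GARS1, in none of the 14 mitochondrial genes and in 0.866% of all windows. WARS1 had no match to the composite sequence. After its RNA was seen to change, its windows were searched on both strands for the interferon-stimulated response element GAAANNGAAA and for the STAT site TTCNNNGAA, which reads the same on both strands. WARS1 has 2 annotated starts in RefSeq, 980 bases apart, and both sequences lay before the downstream one. The stretch holding them is given on the strand of the gene and ends at the base before that start, with the STAT site at position -142 and the response element at position -55 in capitals.
WARS1 (chr14:100375348-100375509, minus strand): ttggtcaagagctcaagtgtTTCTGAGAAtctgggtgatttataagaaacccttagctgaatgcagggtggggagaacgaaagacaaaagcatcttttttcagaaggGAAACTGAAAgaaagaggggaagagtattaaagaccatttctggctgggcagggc
The response element was in 3.57% of all windows and, among the synthetase genes, in WARS1 and EARS2. The STAT site was in 7.66% of all windows and in WARS1, TARS1, CARS1, PARS2 and WARS2.

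Cytosolic synthetase genes were expressed at higher levels than mitochondrial ones. On the TPM scale, which divides counts by transcript length before scaling each library to a common total, the median over libraries ran from 22.8 for CARS1 to 320 for GARS1 among cytosolic genes, with a median gene at 71.1. Among mitochondrial genes it ran from 0.0901 for VARS2 to 81.0 for IARS2, with a median gene at 15.1. IARS1 at 166, KARS1 at 153 and WARS1 at 145 TPM followed GARS1. The levels of these 3 overlapped between libraries, so that their order is not resolved. The least expressed mitochondrial genes were VARS2, SARS2 at 2.97 and HARS2 at 4.52 TPM.

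**Figure D1:**
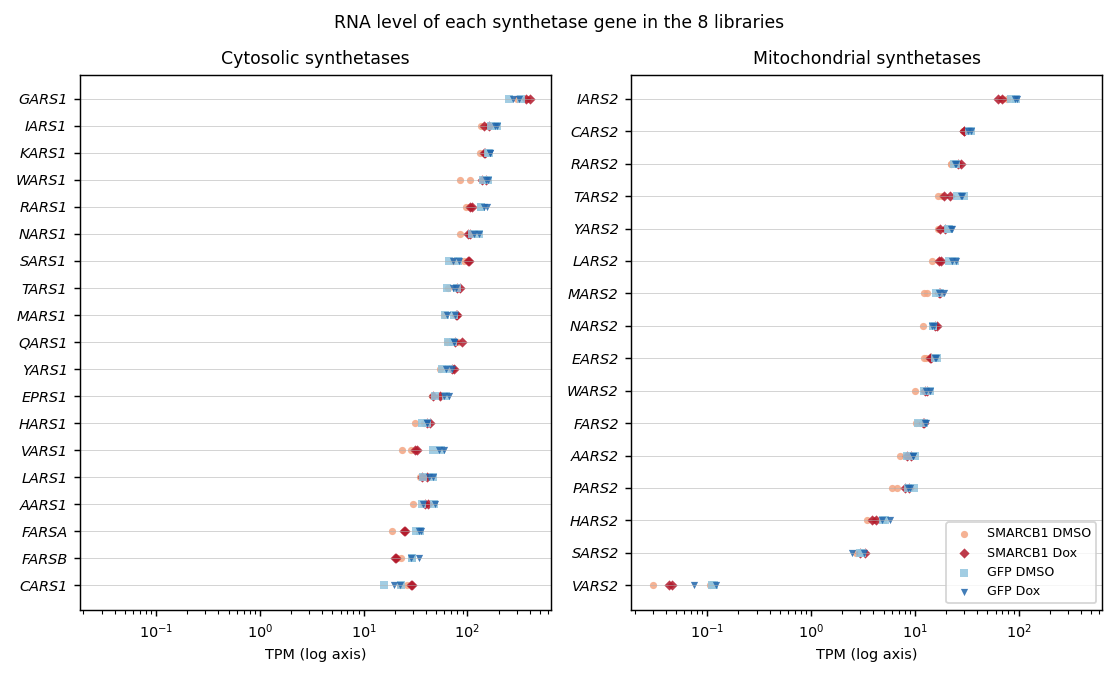
TPM (log axis) of 35 synthetase genes in the 8 libraries, cytosolic genes on the left and mitochondrial genes on the right, ordered by median, with 1 point per library and the group given by color and shape. GARS1 stood highest at a median of 320 TPM, IARS2 led the mitochondrial genes at 81.0 TPM, and VARS2 lay far below all others at 0.0901 TPM.

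The levels of VARS2 and SARS2 are uncertain. VARS2, the mitochondrial valyl enzyme, had 7 and 2 counts in the SMARCB1 DMSO libraries and 3 and 3 counts with Dox. The GFP libraries gave 7 and 8 counts under DMSO and 4 and 8 under Dox. Both SMARCB1 Dox libraries and SMARCB1 DMSO replicate 2 were at or under the floor of 3 counts. It was the only one of the 37 genes that did not pass the filter on low counts. All of its exon bases lie within those of an unnamed long noncoding gene on the same strand, which itself had 0 to 7 counts, and the authors' counting leaves reads shared by 2 genes unassigned. For SARS2, the mitochondrial seryl enzyme, 77.55% of the exon bases are shared in the same way with a readthrough gene that had 0 counts in every library. Among the other genes, overlap with a neighbour on the same strand did not exceed 6.159% of exon bases, in HARS2. Overlap on the opposite strand was largest in YARS2, at 18.33%.

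Amino acids with a cytosolic and a mitochondrial gene differed in the ratio of these genes. CARS1 lay below CARS2 in TPM in every library, with a ratio between 0.477 and 0.979 and a median of 0.706. This order rests on the canonical transcript lengths, 2737 bases for CARS1 and 1838 for CARS2. In CPM, which does not divide by length, the mean of CARS1 was above that of CARS2 in SMARCB1 Dox, at 42.7 and 29.7. It was below that of CARS2 in GFP DMSO, at 27.0 and 31.9 CPM. For isoleucine the median ratio was 2.03 and for leucine 2.03. The ratio was 8.70 for histidine, whose genes HARS1 and HARS2 lie head to head with starts 107 bases apart, and 11.2 for tryptophan. The ratios of serine, 28.6, and valine, 603, rest on the uncertain levels of SARS2 and VARS2.

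**Figure D2:**
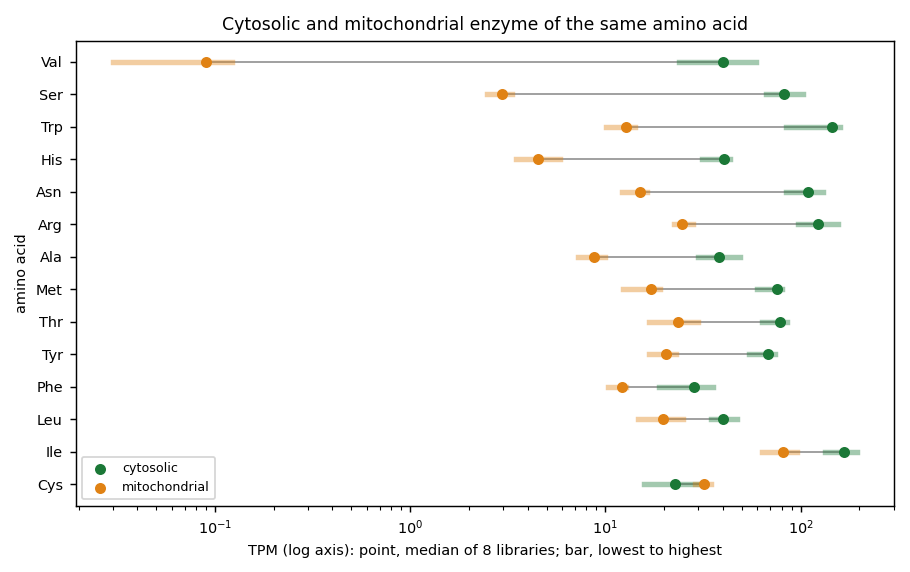
TPM (log axis) of the cytosolic and mitochondrial synthetase for 14 amino acids, with points at the median of 8 libraries and thick bars from the lowest to the highest library; the cytosolic phenylalanyl enzyme is represented by FARSA. Cysteine was the amino acid plotted with the mitochondrial gene above the cytosolic one, at a median ratio of 0.706, and tryptophan had a ratio of 11.2.

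Summed over genes, cytosolic TPM exceeded mitochondrial TPM by a ratio of 5.29 ± 0.433 (SD over 8 libraries of all 4 groups). The cytosolic sum includes GARS1 and KARS1, at medians of 320 and 153 TPM, which supply both compartments. The mitochondrial sum includes VARS2 and SARS2, whose levels are uncertain. The means of the SMARCB1 line were 5.46 ± 0.427 under DMSO and 5.79 ± 0.0930 under Dox (SD, n = 2). Those of the GFP line were 4.93 ± 0.234 under DMSO and 4.99 ± 0.246 under Dox (SD, n = 2). Libraries of SMARCB1 Dox, at 5.73 and 5.86, overlapped with those of SMARCB1 DMSO, at 5.16 and 5.76. With 2 libraries a group no exact permutation test can pass a threshold of 0.05, and none was run.

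In SMARCB1 Dox against SMARCB1 DMSO, edgeR's quasi-likelihood test with Benjamini-Hochberg adjustment over all 15931 tested genes called 3 of the 36 tested synthetase genes at an adjusted p under 0.05. These were WARS1, which rose, and FARSB and IARS2, which fell. The share of all tested genes called was 14.0%, with 8.33% higher and 5.69% lower, and 3 of 36 is not above that background. The median log2 fold change was 0.04 over the 20 cytosolic and 0.02 over the 16 mitochondrial genes, beside 0.00 over all genes, and 35 of the 36 genes moved by less than 0.3 on the log2 scale. The standard error of a single gene's log2 fold change had a median of 0.09 among them, so that smaller shifts were not detectable at this depth and replication. In bulk RNA, fewer cells expressing a gene and less RNA per cell cannot be told apart.

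WARS1, the cytosolic tryptophanyl enzyme (ENSG00000140105, chr14:100333790-100376805, minus strand, 11 exons in the canonical transcript), was at 141 and 158 CPM in SMARCB1 DMSO and at 200.3 and 208 CPM in SMARCB1 Dox. GFP DMSO libraries were at 193 and 211 CPM and GFP Dox libraries at 197 and 209 CPM. The 2 SMARCB1 DMSO libraries lay below all 6 others, and the SMARCB1 Dox libraries lay within the range of the GFP libraries. The log2 fold change with Dox was 0.45 ± 0.08 (SE; adjusted p = 0.000747, edgeR) in the SMARCB1 line, whereas the GFP line gave 0.01. Without SMARCB1 DMSO replicate 1, the library with the highest mitochondrial share, the value in the SMARCB1 line was 0.37 (adjusted p = 0.0153, edgeR).

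FARSB, the beta subunit of the cytosolic phenylalanyl enzyme (ENSG00000116120, chr2:222566899-222656092, minus strand, 17 exons), was at 90.7 and 88.2 CPM in SMARCB1 DMSO and at 74.0 and 73.6 CPM in SMARCB1 Dox. The GFP libraries were at 102 and 98.98 CPM under DMSO and at 115 and 97.5 CPM under Dox. SMARCB1 Dox libraries were the lowest of the 8. The log2 fold change was -0.28 ± 0.08 (SE; adjusted p = 0.0313, edgeR). The call was lost when any 1 of the 4 libraries of the SMARCB1 line was left out, with adjusted p between 0.0568 (without SMARCB1 DMSO replicate 2) and 0.127 (without SMARCB1 DMSO replicate 1), and with library totals in place of normalized library sizes (adjusted p = 0.210, edgeR) or a fit of only the SMARCB1 line (adjusted p = 0.0582, edgeR). FARSA, the alpha subunit of the same enzyme, had a log2 fold change of 0.06 ± 0.10 (SE; adjusted p = 0.797, edgeR), and the difference between the subunits was not tested.

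IARS2, the mitochondrial isoleucyl enzyme (ENSG00000067704, chr1:220094132-220148041, plus strand, 23 exons), was at 153 and 154 CPM in SMARCB1 DMSO and at 122 and 129 CPM in SMARCB1 Dox. The GFP libraries lay between 156 and 170.1 CPM. SMARCB1 Dox libraries were again the lowest of the 8. The log2 fold change was -0.29 ± 0.08 (SE; adjusted p = 0.0151, edgeR). The call was lost without SMARCB1 Dox replicate 1 (adjusted p = 0.121, edgeR) and with library totals (adjusted p = 0.145, edgeR).

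**Figure D3:**
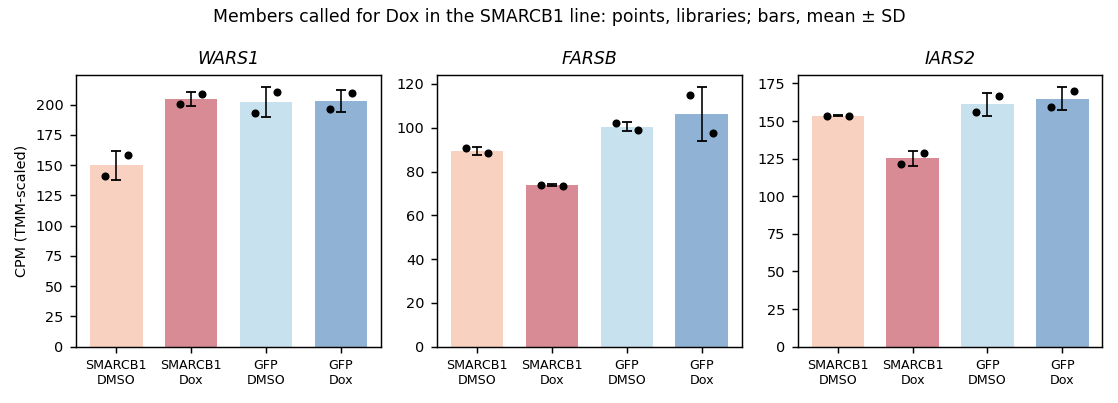
CPM scaled with the normalized library sizes for WARS1, FARSB and IARS2 in the 4 groups, with points for the 2 libraries of each group and bars for their mean and SD. WARS1 was low in SMARCB1 DMSO, at 141 and 158 CPM, and FARSB and IARS2 were low in SMARCB1 Dox.

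Of the genes that were not called, MARS2, the mitochondrial methionyl enzyme, had a log2 fold change of 0.27 ± 0.10 (SE; adjusted p = 0.0853, edgeR). Its SMARCB1 Dox libraries, at 28.2 and 27.9 CPM, lay above its SMARCB1 DMSO libraries, at 25.3 and 21.2 CPM. EPRS1, which carries the glutamyl and prolyl activities in 1 chain, had a log2 fold change of -0.16 ± 0.10 (SE; adjusted p = 0.330, edgeR). The remaining genes lay between -0.15 and 0.23.

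Dox in the GFP line called 0 synthetase genes, and 0% of all tested genes. No synthetase gene had an unadjusted p under 0.05 there with edgeR, and DESeq2 called 0 of all genes as well. The log2 fold changes of the 36 genes ran from -0.12 to 0.16. The 95% intervals reached from -0.56 to 0.36, with the widest for SARS2.

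The difference of the Dox effects, SMARCB1 line minus GFP line, was called for 4.71% of all tested genes, 3.07% higher and 1.64% lower. Among the synthetase genes it was called for WARS1, at 0.44 ± 0.12 on the log2 scale (SE; adjusted p = 0.0311, edgeR). This call was lost in 6 of the 8 fits that left out 1 library. The adjusted p was 0.117 without SMARCB1 DMSO replicate 1, 0.0510 without SMARCB1 Dox replicate 1, 0.0780 without SMARCB1 Dox replicate 2, 0.186 without GFP DMSO replicate 2, 0.165 without GFP Dox replicate 1 and 0.0676 without GFP Dox replicate 2, all with edgeR. The log2 difference itself stayed between 0.36 and 0.53. FARSB, at -0.36 (adjusted p = 0.104, edgeR), and IARS2, at -0.33 (adjusted p = 0.114, edgeR), were not called. Their falls in the SMARCB1 line were thus not shown to differ from the GFP line in this fit. Over 7 alternative settings the adjusted p ran from 0.0214 to 0.289 for FARSB and from 0.0242 to 0.352 for IARS2 (edgeR or DESeq2). The setting with a replicate block called both.

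**Figure D4:**
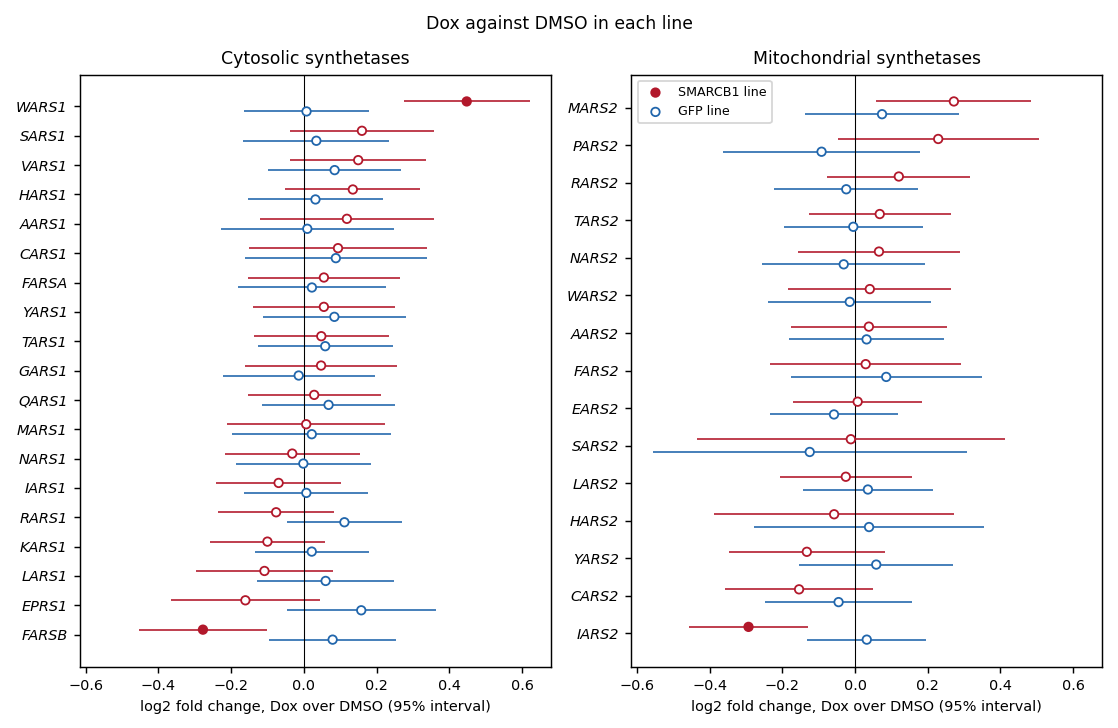
Log2 fold change of Dox over DMSO with 95% intervals for 34 tested synthetase genes, in the SMARCB1 line (red) and the GFP line (blue); filled points are called at an adjusted p under 0.05. In the SMARCB1 line WARS1 stood at 0.45, FARSB at -0.28 and IARS2 at -0.29, and the GFP line ran from -0.12 to 0.16 with 0 called.

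More synthetase genes were called between the lines than between Dox and DMSO, as was so for genes in general. In SMARCB1 DMSO against GFP DMSO, 11 of 36 synthetase genes were called, beside 32.0% of all tested genes (16.3% higher, 15.7% lower), which is a like share. Of the 20 cytosolic genes 6 were higher and 3 lower in the SMARCB1 line, and of the 16 mitochondrial genes 0 were higher and 2 lower. The median log2 ratio was 0.05 over cytosolic genes and -0.04 over mitochondrial genes, beside 0.01 over all genes. The line markers differed as well, with log2 ratios of 0.86 for VIM, -0.63 for KRT8 and -0.55 for KRT18, all called, and their part in the result was not tested. Scaling by library totals shifted the median over all genes from 0.01 to -0.10, and it changed the calls over all genes from 2600 higher and 2505 lower to 1732 higher and 3657 lower. In SMARCB1 Dox against SMARCB1 DMSO it changed them from 1327 higher and 907 lower to 1985 higher and 497 lower.

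The higher genes were CARS1, GARS1, SARS1, QARS1, YARS1 and TARS1, the cytosolic enzymes for cysteine, glycine, serine, glutamine, tyrosine and threonine. CARS1 was at 39.1 and 40.9 CPM in SMARCB1 DMSO and at 22.5 and 31.6 CPM in GFP DMSO, with a log2 ratio of 0.56 ± 0.12 (SE; adjusted p = 0.000843, edgeR). GARS1 was at 459 and 514 CPM in SMARCB1 DMSO and at 322 and 398 CPM in GFP DMSO, with a log2 ratio of 0.43 ± 0.10 (SE; adjusted p = 0.00185, edgeR). In both genes the SMARCB1 libraries lay above the GFP libraries, and in both GFP DMSO replicate 1 was the lowest of the 8 libraries.

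SARS1 was at 88.3 and 100.4 CPM against 66.2 and 78.3 CPM, with a log2 ratio of 0.38 ± 0.10 (SE; adjusted p = 0.00371, edgeR). QARS1, at 98.9 and 114 against 83.0 and 89.0 CPM, had a log2 ratio of 0.31 (adjusted p = 0.0104, edgeR). The groups did not overlap in either gene. YARS1, at 84.4 and 98.8 against 72.0 and 80.8 CPM, had a log2 ratio of 0.26 (adjusted p = 0.0378, edgeR). TARS1, at 111 and 119 against 87.7 and 105 CPM, had a log2 ratio of 0.25 (adjusted p = 0.0370, edgeR). Without GFP DMSO replicate 1 the calls of GARS1, SARS1, QARS1, YARS1 and TARS1 were lost, and 4 cytosolic genes were called, namely CARS1, VARS1, WARS1 and FARSA. The calls over all genes were 3918 of 16639 in that fit, beside 5105 of 15931 with all libraries. Without SMARCB1 DMSO replicate 2, 5 were called, these 4 and GARS1, and the calls over all genes were 4490 of 16626. The call of TARS1 was also lost without either GFP Dox library (adjusted p = 0.0519 and 0.0516, edgeR). Library totals lost the calls of QARS1, YARS1 and TARS1, and DESeq2 those of YARS1 and TARS1.

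The lower cytosolic genes were VARS1, WARS1 and FARSA. VARS1, the valyl enzyme, had the log2 ratio of largest size among the 36 genes, at 61.7 and 66.1 CPM in SMARCB1 DMSO and 100.3 and 116 CPM in GFP DMSO. Its log2 ratio was -0.76 ± 0.09 (SE; adjusted p = 6.19e-07, edgeR), and it stayed between -0.87 and -0.66 when each library was left out in turn. WARS1 had a log2 ratio of -0.43 ± 0.08 (SE; adjusted p = 0.000330, edgeR). FARSA was at 21.5 and 24.9 CPM against 29.9 and 32.0 CPM, with a log2 ratio of -0.41 ± 0.10 (SE; adjusted p = 0.00263, edgeR). Without SMARCB1 DMSO replicate 1 the call of FARSA was lost (log2 ratio -0.31, adjusted p = 0.0525, edgeR).

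Of the mitochondrial genes, TARS2, the threonyl enzyme, was at 28.8 and 28.2 CPM in SMARCB1 DMSO and at 36.0 and 40.6 CPM in GFP DMSO, with a log2 ratio of -0.43 ± 0.09 (SE; adjusted p = 0.00105, edgeR). Threonine was thus the amino acid whose cytosolic gene was called higher and whose mitochondrial gene was called lower. The call of the cytosolic gene, TARS1, was lost with library totals, with DESeq2 and in some fits that left out a library, as given above. LARS2, the leucyl enzyme, was at 44.6 and 46.4 CPM against 53.2 and 58.1 CPM, with a log2 ratio of -0.29 ± 0.09 (SE; adjusted p = 0.0127, edgeR). The call of LARS2 was lost without SMARCB1 DMSO replicate 1 (adjusted p = 0.0734, edgeR) and without GFP DMSO replicate 2 (adjusted p = 0.157, edgeR).

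The same comparison was made between the Dox libraries of the lines, SMARCB1 Dox against GFP Dox, an addition chosen after the data were seen. It called 13 of the 36 synthetase genes, beside 38.8% of all tested genes (19.6% higher, 19.2% lower). Of the 20 cytosolic genes 5 were higher and 4 lower, and of the 16 mitochondrial genes 1 was higher and 3 lower. In both comparisons CARS1, GARS1, SARS1, QARS1 and TARS1 were called higher, and VARS1, FARSA, TARS2 and LARS2 were called lower. VARS1 was at 70.7 and 71.04 CPM in SMARCB1 Dox and at 108 and 122 CPM in GFP Dox, with a log2 ratio of -0.70 ± 0.09 (SE; adjusted p = 1.61e-06, edgeR). CARS1 was at 42.8 and 42.6 CPM against 26.5 and 31.0 CPM, with a log2 ratio of 0.57 ± 0.12 (SE; adjusted p = 0.000569, edgeR).

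WARS1 was no longer called between the lines under Dox, with a log2 ratio of 0.01 ± 0.08 (SE; adjusted p = 0.947, edgeR), and YARS1 had a log2 ratio of 0.23 (adjusted p = 0.0548, edgeR). Called in the Dox libraries and not in the DMSO libraries were FARSB at -0.52, IARS2 at -0.40, RARS1 at -0.37 and RARS2 at 0.25. In the DMSO libraries their log2 ratios had the same signs, at -0.17, -0.07, -0.18 and 0.11. The change between these 2 comparisons is the difference of the Dox effects. In the main fit it was called for none of these genes, with adjusted p = 0.424 for RARS1 and 0.679 for RARS2 (edgeR). RARS1 and RARS2 are the cytosolic and mitochondrial arginyl enzymes. RARS1 was at 123 and 123 CPM in SMARCB1 Dox and at 162 and 156 CPM in GFP Dox, and RARS2 was at 34.3 and 31.1 CPM against 27.4 and 27.4 CPM. The Dox comparison in the SMARCB1 line shares 2 libraries with each line comparison, so that the values of WARS1, FARSB and IARS2 in them are not separate evidence.

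**Figure D5:**
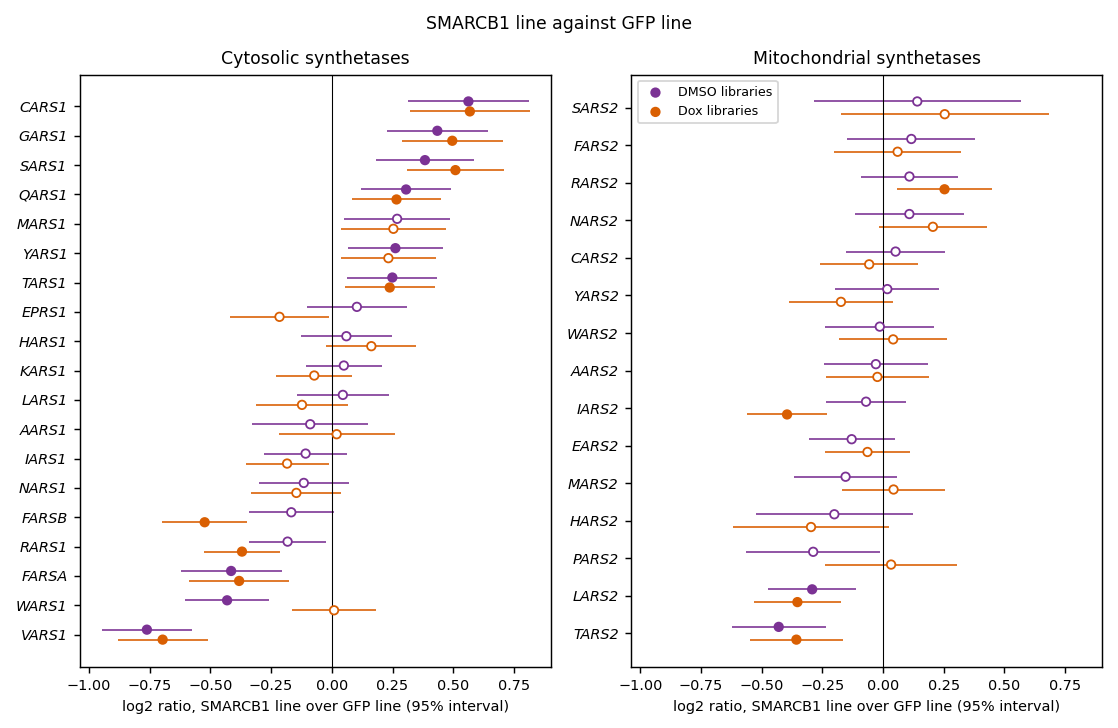
Log2 ratio of the SMARCB1 line over the GFP line with 95% intervals for 34 tested synthetase genes, between the DMSO libraries (purple) and between the Dox libraries (orange); filled points are called at an adjusted p under 0.05. VARS1 was lowest in both, at -0.76 and -0.70, CARS1 was highest in both, at 0.56 and 0.57, and WARS1 was at -0.43 in the DMSO libraries and 0.01 in the Dox libraries.

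By structural class, 2 of 17 tested class I genes (WARS1 and IARS2) and 1 of 18 class II genes (FARSB) were called for Dox in the SMARCB1 line, beside 14.0% of all genes. Between the lines under DMSO the counts were 6 of 17 and 5 of 18, beside 32.0%. EPRS1, whose activities belong to both classes, was left out of this count.

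None of the 8 genes for enzymes of the multi-synthetase complex, which include EPRS1, KARS1 and MARS1, was called for Dox in the SMARCB1 line with edgeR, and 0 had an unadjusted p under 0.05. Among all 15931 tested genes the share called was 14.0%, and the unadjusted p lay under 0.05 for 4147. The log2 fold changes of the 8 ran from -0.16 to 0.03, with a median of -0.07. Of the 3 scaffold proteins 2 were called. AIMP2 was at 40.9 and 44.2 CPM in SMARCB1 DMSO and at 54.1 and 51.2 CPM in SMARCB1 Dox, a rise of 0.31 on the log2 scale (adjusted p = 0.0222, edgeR). EEF1E1, also known as AIMP3, was at 76.0 and 77.2 CPM and at 57.7 and 59.6 CPM, and fell by 0.39 on the log2 scale (adjusted p = 0.00397, edgeR). The difference from the GFP line, called for 4.71% of all tested genes, was called for EEF1E1, at -0.48 (adjusted p = 0.0224, edgeR), and not for AIMP2.

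The synthetase genes often listed as ATF4 targets were 13 of the 20 cytosolic genes. With Dox in the SMARCB1 line 1 of the 13 was called, WARS1, with a median log2 fold change of 0.05. Of 30 other genes of the ATF4 response, ATF4 included, 7 rose and 1 fell, with a median of 0.17. Both medians stand beside 0.00 over all genes, and the shares beside 14.0%. VLDLR rose by 1.96, STC2 by 1.36 and JDP2 by 1.28 on the log2 scale, and the amino acid transporter gene SLC38A2 fell by 0.33. ATF4 itself was at 257 and 236 CPM in SMARCB1 DMSO and at 293 and 274 CPM in SMARCB1 Dox, with a log2 fold change of 0.20 (adjusted p = 0.0999, edgeR). The difference from the GFP line, called for 4.71% of all tested genes, was called for 1 of the 30, JDP2, at 1.55 (adjusted p = 9.07e-05, edgeR).

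Between the lines under DMSO, 5 of the 13 ATF4-listed synthetase genes were called higher in the SMARCB1 line, namely CARS1, GARS1, SARS1, YARS1 and TARS1, and 2 lower, namely VARS1 and WARS1, with a median log2 ratio of 0.10 over the 13. Of the 30 other genes of the response 18 were higher and 1 lower, with a median of 0.33. ATF4 itself was not called, with a log2 ratio of 0.20 (adjusted p = 0.0633, edgeR). Over all tested genes 16.3% were higher and 15.7% lower, with a median of 0.01. These synthetase genes also varied between libraries of the same group. For each gene the log2 of its CPM over its mean in the 8 libraries was taken. The median over the 13 genes was -0.21 in GFP DMSO replicate 1 and 0.09 in GFP DMSO replicate 2, and -0.16 and 0.11 in the GFP Dox libraries. In the SMARCB1 line it was -0.02 and 0.11 under DMSO and 0.08 and 0.08 under Dox. The 7 other cytosolic genes had medians between -0.08 and 0.04, and the 16 tested mitochondrial genes between -0.05 and 0.05. Replicate 1 of each GFP group thus had the lowest medians for the ATF4-listed genes, and the line comparison without GFP DMSO replicate 1 is given above.

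Of 5 genes for tRNA editing, peptidyl-tRNA hydrolysis or synthetase-like proteins, 2 were called for Dox in the SMARCB1 line, beside 14.0% of all tested genes. TARS3, a second cytosolic threonyl enzyme whose symbol lay outside the family rule, was at 5.62 and 4.55 CPM in SMARCB1 DMSO and at 9.91 and 9.27 CPM with Dox. The GFP libraries were at 6.72 and 8.65 CPM under DMSO and at 7.92 and 6.53 CPM under Dox. It rose by 0.92 on the log2 scale (adjusted p = 0.000578, edgeR), and the difference from the GFP line, called for 4.71% of all tested genes, was 1.01 (adjusted p = 0.0119, edgeR). As with WARS1, the SMARCB1 DMSO libraries were the lowest of the 8. TARS1 and TARS2 had log2 fold changes of 0.05 and 0.07 in the same comparison and were not called. PTRH2, a peptidyl-tRNA hydrolase of the mitochondrion, was at 36.3 and 32.2 CPM in SMARCB1 DMSO and at 23.8 and 22.3 CPM in SMARCB1 Dox. It fell by 0.57 (adjusted p = 0.000250, edgeR), and the difference from the GFP line was -0.53 (adjusted p = 0.0218, edgeR).

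None of 10 partners of mitochondrial tRNA charging and delivery was called for Dox in the SMARCB1 line with edgeR, and 2 had an unadjusted p under 0.05. Of 21 genes of tRNA end processing and splicing 2 fell. POP5, a subunit of RNase P, fell by 0.53 (adjusted p = 0.00546, edgeR) and ELAC1, a tRNA end nuclease, by 0.41 (adjusted p = 0.0234, edgeR). The difference from the GFP line, called for 4.71% of all tested genes, was called for none of the 21 (smallest adjusted p = 0.0545, edgeR). Of 23 genes of RNA polymerase III and its factors 1 fell, POLR3G, from 52.3 and 45.2 CPM to 31.6 and 29.1 CPM. The fall was 0.68 on the log2 scale (adjusted p = 2.78e-05, edgeR), and the difference from the GFP line was -0.72 (adjusted p = 0.00185, edgeR). The shares called for Dox in the SMARCB1 line stand beside 14.0% of all tested genes.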

How the data were processed

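RNA was measured by sequencing in 8 libraries (4 groups of 2). The authors deposited whole-number read counts for each gene, obtained with STAR and HTSeq (hg38 per the labels; exons of GENCODE v42 in intersection-strict mode per the study's methods). Tool versions and the strand option were not given in the sources used here. The labels name a ribosome profiling library kit and the methods a directional RNA kit, so the chemistry is uncertain. Entries naming no gene made up 27% to 29.3% and were left out.

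The members and lists were chosen with earlier results of these data known. Counts were tested with edgeR 4.0.16 (R 4.3.3; TMM, filterByExpr, 1 mean per group, all 8 libraries in 1 quasi-likelihood fit; called at an adjusted p under 0.05), tested first on simulated data. CPM used TMM-scaled library sizes (marker sums and the floor used library totals), and TPM the canonical transcript of GENCODE v44. Alternatives were RLE size factors, library totals, other filters, DESeq2 1.42.0, only the groups compared, a replicate block with and without GC correction, and each library left out.

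Full values were given for genes called for Dox in the SMARCB1 line or in the difference, for up to 5 higher and 5 lower genes per compartment between the lines under DMSO, and for untested genes. From other lists, up to 3 called genes per direction and ATF4 were named. Other members were named after their values were seen. Counts, medians and sums cover all members, but 2 members are not reported here one by one and were left out of the figures. The floor covers counting error only.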

Additional observations from a re-analysis of the deposited data

Results flagged for a closer look

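The Dox effect on WARS1 differed between the lines by 0.44 on the log2 scale in a test of the difference itself (adjusted p = 0.0311, edgeR, 2 libraries a group). WARS1 was higher in both SMARCB1 Dox libraries than in both SMARCB1 DMSO libraries, and the GFP groups overlapped. The adjusted p ranged from 0.0115 to 0.186 when each library was left out and from 0.000946 to 0.0295 over the 7 other alternatives.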

How the results depend on the processing

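With 2 libraries a group, small shifts could not be resolved. Of the values computed for named genes under alternatives, 285 kept their direction and side of the threshold, 35 were no longer past it, 2 were newly past it and 6 changed sign. Of the count and level values, 106 stayed within a set margin of the main fit and 26 moved beyond it. For counts of calls the margin was a fixed fold, or equality where either fit had no calls. For the ratio of levels it was the SD over libraries. The cause was not tested.

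For Dox in the SMARCB1 line, library totals and a fit of only the groups compared each called 1 cytosolic gene. The calls over all genes were 2482 of 15931 and 1771 of 15068 in these fits. Leaving out each library gave 1 to 2 cytosolic and 0 to 2 mitochondrial calls. In the difference of the Dox effects it gave 0 to 1 cytosolic calls. Between the lines under DMSO it gave 4 to 10 cytosolic and 1 to 2 mitochondrial calls, library totals gave 5 mitochondrial calls and the Dox libraries 4, and the WARS1 log2 ratio changed from -0.43 to 0.0093 with the Dox libraries. The uncalled Dox values of the GFP line, near 0, changed sign when some libraries were left out, with ranges of -0.053 to 0.065 for WARS1, -0.047 to 0.19 for FARSB and -0.017 to 0.076 for IARS2. The ratio of cytosolic to mitochondrial level was 4.54 as a ratio of medians and 3.64 with union exon lengths.

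The replicate numbers do not mark a shared batch in the labels. Deviations of same-numbered libraries correlated at 0.03 to 0.15, which cannot show whether the libraries were paired. The main fit did not pair them. With a replicate block, 2 mitochondrial genes were called for Dox in the SMARCB1 line (IARS2 and MARS2), and also with the block and a GC correction; the calls over all genes were 3149 and 2995 of 15931, beside 2234 without the block. In the difference the block called 3 cytosolic genes (WARS1, FARSB and EPRS1) and 1 mitochondrial gene (IARS2), with 1282 of all 15931 genes called, beside 750 without it.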
